A study of Saccharomyces cerevisiae with 6 samples.

Results

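The genes described here encode the initiation factors of RNA polymerase III and its repressor Maf1 in the budding yeast Saccharomyces cerevisiae. They are 10 of the 5475 gene rows in the deposited table and were chosen by name: TFC1, TFC3, TFC4, TFC6, TFC7 and TFC8 (the subunits of TFIIIC), BRF1 and BDP1 (of TFIIIB), PZF1 (TFIIIA) and MAF1. Each of them had a row of its own, and all 10 passed the filter on low values. Transcripts were counted by sequencing near their 3′ ends (QuantSeq) in BY4741, a laboratory haploid of mating type a without functional HIS3, LEU2, MET17 and URA3 genes. The groups were untreated wild type (WT), a bud27∆ mutant without treatment, and WT grown overnight with rapamycin at 50 ng/ml, with 2 samples each. All were grown in YPD, a rich glucose medium, at 30 °C to an optical density near 0.8, and the control for both comparisons was the same pair of WT samples. The study set out to compare the loss of Bud27 with a block of the TOR pathway.

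RNA polymerase III makes the transfer RNAs, the 5S ribosomal RNA and a few other short RNAs. At a tRNA gene TFIIIC binds the A box and the B box, which lie inside the transcribed stretch, and then places TFIIIB upstream of the start, and TFIIIB recruits the polymerase. At the 5S gene TFIIIA binds first and brings in TFIIIC. Maf1 represses the polymerase: while the TOR complex 1 kinase is active, Sch9 and protein kinase A keep Maf1 phosphorylated, and when nutrients or TOR signalling fail it is dephosphorylated, enters the nucleus and blocks initiation. Rapamycin inhibits TOR complex 1. Bud27 is a prefoldin-like protein known for its role in the assembly of the nuclear RNA polymerases.

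The libraries rested on 18153459 to 28774941 reads in WT and rapamycin but on only 3212848 and 5088194 in the deletion, and 3 reads correspond to 0.934 CPM (reads scaled to a common library total) in the shallowest library. Reads of BUD27 numbered 268 and 246 in WT, fell to 6 and 9 in the deletion, and with rapamycin numbered 326 and 234. TRP1, which the labels do not mention, had 5 and 8 reads in the deletion where WT had 738 and 626, and FRS2, which converges on BUD27, fell there with a log2 fold change of -2.17 (SE 0.25, limma adjusted p = 0.000436). LEU2 reads numbered 1 and 14 in WT, 19 and 22 in the far shallower deletion libraries and 1 in each rapamycin library. Those of MET17 numbered 31 and 80 in WT, 2 and 3 in the deletion and 0 with rapamycin. In CPM, MET17 stood at 1.15 and 4.41 in WT, so these libraries differed from each other too, and at 0.62 and 0.59 in the deletion. URA3, also without function in BY4741, had counts of 70 and 42 (WT), 10 and 14 (deletion), and 66 and 42 (rapamycin). Its CPM differed little between groups: 2.60 and 2.31, 3.11 and 2.75, and 2.29 and 2.02, in that order. All labels give the BY4741 background, yet the deletion libraries differed from WT at TRP1, LEU2 and MET17 as well as at BUD27. A difference of strain cannot be told apart from the deletion, and its part in the deletion values below was not tested. The a-specific genes MFA1, MFA2 and STE2 had 635 to 66708 reads in every library. Of the alpha-specific genes, MF(ALPHA)1 had at most 1 read, while STE3 was read 89 and 42 times in WT, 221 and 183 times with rapamycin, and 2 and 1 times in the deletion. Whether the 2 samples of a group were grown separately is not stated, and p-values measure only how far these samples spread, which may be technical.

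Stretches upstream of 5 of the genes are shown. TFC6 and BDP1 hold letters of the B box, the element that TFIIIC itself recognises. BRF1 holds the core site of Gcn4, the activator of amino acid synthesis genes. TFC7 and MAF1 hold a TATA element. TFC1, TFC4, TFC6 and BRF1 also changed in the deletion and have no TATAAA in the window. A link between any element and a change was not tested. Each stretch runs from 250 bases before the annotated start to the start codon, 5′ to 3′ on the gene's strand of the R64 RefSeq reference, and ends in atg. Capitals mark GTTCGAA (B box) and GATGAG (core of the PAC element) in TFC6, GTTCGAA and the TATA element TATAAA in BDP1, TGACTC (Gcn4) and AGGGG (the stress element STRE) in BRF1, AGGGG and TATAAA in TFC7, and TATAAA in MAF1, on either strand.
TFC6, chrIV:1198695-1198947, minus strand: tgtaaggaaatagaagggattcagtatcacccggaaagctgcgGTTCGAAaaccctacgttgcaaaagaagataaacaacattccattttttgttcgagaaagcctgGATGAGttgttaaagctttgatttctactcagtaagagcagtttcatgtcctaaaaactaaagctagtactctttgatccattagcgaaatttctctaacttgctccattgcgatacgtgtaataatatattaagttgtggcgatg
BDP1, chrXIV:554798-555050, plus strand: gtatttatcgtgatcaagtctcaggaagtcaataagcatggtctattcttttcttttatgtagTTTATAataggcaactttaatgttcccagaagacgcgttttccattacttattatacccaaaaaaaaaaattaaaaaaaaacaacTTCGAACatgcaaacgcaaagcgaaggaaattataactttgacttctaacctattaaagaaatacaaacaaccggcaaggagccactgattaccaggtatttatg
BRF1, chrVII:984270-984522, minus strand: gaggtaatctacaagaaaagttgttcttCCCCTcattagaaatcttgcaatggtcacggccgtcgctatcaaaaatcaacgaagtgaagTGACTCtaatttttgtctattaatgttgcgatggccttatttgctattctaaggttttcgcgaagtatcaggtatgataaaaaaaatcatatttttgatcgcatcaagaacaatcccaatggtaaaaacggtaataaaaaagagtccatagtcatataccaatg
TFC7, chrXV:528691-528943, plus strand: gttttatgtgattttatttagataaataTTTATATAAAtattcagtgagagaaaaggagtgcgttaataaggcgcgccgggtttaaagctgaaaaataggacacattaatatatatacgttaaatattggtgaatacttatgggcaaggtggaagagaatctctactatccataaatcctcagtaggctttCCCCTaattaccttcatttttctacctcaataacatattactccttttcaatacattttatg
MAF1, chrIV:458101-458353, minus strand: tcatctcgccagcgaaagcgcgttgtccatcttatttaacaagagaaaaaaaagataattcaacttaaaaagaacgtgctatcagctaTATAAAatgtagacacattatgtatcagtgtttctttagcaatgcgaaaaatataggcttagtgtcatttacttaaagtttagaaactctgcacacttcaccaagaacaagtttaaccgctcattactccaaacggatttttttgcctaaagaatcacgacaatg

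The GTTCGAA upstream of TFC6 begins 207 bases before the start codon and lies within ETC6, an annotated site 188 to 210 bases before it. ETC sites bind TFIIIC without recruiting the polymerase, and 8 are annotated in the reference. ETC4 and ETC7 hold the same letters (capitals), each read here on the strand that carries them.
ETC6, chrIV:1198885-1198907, minus strand: gcgGTTCGAAaaccctacgttgc
ETC4, chrVII:1010927-1010949, plus strand: gcctccacggagGTTCGAAtggg
ETC7, chrXV:768106-768128, plus strand: gccccgttcgggGTTCGAActgc
Over windows of 250 bases before to 50 after the start, on both strands, GTTCGAA occurred in 2.87% of 6020 protein-coding genes and in 2 of the 10 genes (TFC6 and BDP1). Among the other motifs, TGACTC occurred in 7.96% of windows and in BRF1, AGGGG in 21.56% and in BDP1, BRF1 and TFC7, and TATAAA in 45.38% and in BDP1, MAF1 and TFC7. The AGGGG match of BDP1 begins at base 38 of its coding sequence, while those of BRF1 and TFC7 lie before the start. GATGAG occurred in 20.32% and in TFC6. AAAATTT, part of the RRPE element, occurred in 23.14%, and a form of the Abf1 site in 14.32%, both in PZF1 among these genes. GATAAG, which GATA factors bind, occurred in 14.63% of windows and in none of the 10. The forward and reverse AAAATTT matches in PZF1 overlap each other, as do those of TATAAA in TFC7. TFC1, TFC3, TFC4 and TFC8 held none of these letters in the window. A match is a description of the letters and not a bound site.

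In the deletion 6 of the 10 transcripts were higher than in WT (TFC1, TFC6, TFC7, BRF1, BDP1 and MAF1), TFC4 was lower, and TFC3, TFC8 and PZF1 did not pass the test. After rapamycin 2 were higher, TFC3 and MAF1, and none was lower. A gene passed at an adjusted p below 0.05 by limma over 5279 gene rows, of which 47.2% passed in the deletion (21.7% higher, 25.5% lower) and 45.9% after rapamycin (24.4% higher, 21.5% lower). The median log2 fold change of the 10 was 0.60 in the deletion and 0.10 after rapamycin, beside -0.02 and 0.05 for all rows. All levels below are scaled CPM, CPM divided by a TMM factor per library that evens out the bulk of the genes, and all changes are differences of log2(scaled CPM + 1), a scale that understates low genes such as PZF1. They are relative to the RNA of the whole culture, so fewer cells with a transcript and less of it per cell cannot be told apart. The scale matters: on the deposited CPM without that factor the median of all rows lay at 0.38 in the deletion and 0.60 after rapamycin, and that of the 10 genes at 1.01 and 0.67. With scaling, the rapamycin median of the 10 was 0.22 without rapamycin replicate 2 and 0.063 without replicate 1. On the deposited CPM scale 8 of the 10 were higher in the deletion (TFC3 and PZF1 in addition) and TFC4 was lower. On that scale 55.9% of all rows passed in the deletion (42.5% higher, 13.3% lower). After rapamycin 8 were higher there, all but TFC7 and PZF1, where 62.9% of all rows passed (54.7% higher, 8.18% lower).

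**Figure D1:**
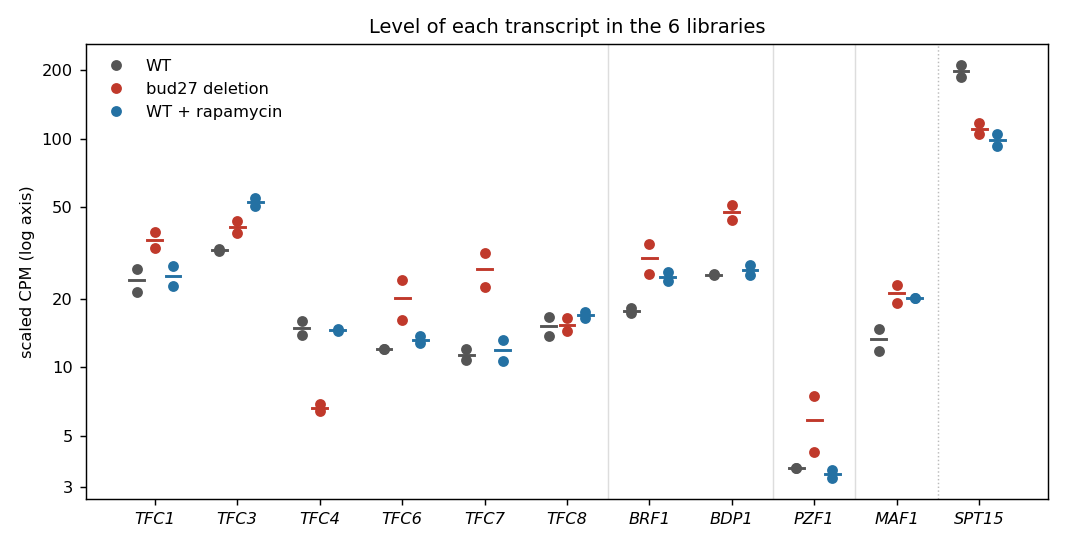
Scaled CPM (log axis) of the 10 genes and of SPT15 in the 2 libraries of each group, with points for libraries and bars for means. TFC4 is lowest in the deletion (6.94 and 6.43), TFC7 and BDP1 are highest there, the MAF1 values of the deletion and of rapamycin overlap above WT, and TFC3 is highest after rapamycin (55.0 and 50.6).

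Within TFIIIC, Tfc3 and Tfc6 belong to the module that binds the B box. TFC3 (YAL001C, chromosome I at 147594 to 151166, minus strand, with an intron of 90 bases) had 32.4 and 33.0 scaled CPM in WT, 38.8 and 43.4 in the deletion, and with rapamycin 55.0 and 50.6. All rapamycin values lay above all deletion values, and these above both WT values. TFC3 rose after rapamycin by 0.68 (SE 0.13, limma adjusted p = 0.00421), a call that every one of 16 alternatives kept (adjusted p 0.000113 to 0.0497), and in the deletion its change was 0.32 (SE 0.13, adjusted p = 0.0806). VPS8, which converges on TFC3 from 62 bases away, had a similar value after rapamycin, 0.65 (SE 0.16, adjusted p = 0.0107), and -0.17 (SE 0.16, adjusted p = 0.402) in the deletion. Whether counting used strand is not given in the sources used here, and without strand the reads of 2 such converging genes could be mixed.

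TFC6 (YDR362C, chromosome IV at 1196679 to 1198697, minus strand), the gene downstream of ETC6, had 12.1 and 12 scaled CPM in WT, 24.1 and 16.2 in the deletion, and with rapamycin 13.7 and 12.8. The deletion libraries stood above the others but far from each other: their scaled read ratio was 1.49 (exact binomial 95% interval 1.09 to 2.04, counting error only). The rise in the deletion was 0.67 (SE 0.20, limma adjusted p = 0.0259), and it lost its call without WT replicate 1 (0.68, adjusted p = 0.115) or replicate 2 (0.67, adjusted p = 0.121), while without deletion replicate 1 it was 0.43 and still called (adjusted p = 0.0414). The 16 alternatives gave adjusted p from 0.0018 to 0.121. After rapamycin the change was 0.13 (95% interval -0.33 to 0.59). BCP1, the next gene on the same strand 415 bases beyond, fell in the deletion (-0.48, SE 0.13, adjusted p = 0.0152) and after rapamycin (-0.79, SE 0.13, adjusted p = 0.00153).

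Tfc1 and Tfc7 form the part of TFIIIC that contacts the A box. TFC7 (YOR110W, chromosome XV at 528941 to 530248, plus strand) had 10.8 and 12 scaled CPM in WT, 31.6 and 22.4 in the deletion, and with rapamycin 13.2 and 10.6. It rose in the deletion, its mean going from 11.4 ± 0.861 in WT to 27 ± 6.52 (SD over 2 libraries, scaled CPM), by 1.16 on the log2 scale (SE 0.20, limma adjusted p = 0.00277), which lay above that of 95.2% of all rows. The deletion libraries differed here too, with a ratio of 1.41 (1.08 to 1.85), yet the call held under all 16 alternatives. The next gene on the same strand, YOR111W, which starts 180 bases beyond TFC7, went the other way (-0.92, SE 0.20, adjusted p = 0.00675).

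TFC1 (YBR123C, chromosome II at 484742 to 486691, minus strand) had 26.9 and 21.4 scaled CPM in WT, 39.1 and 33.1 in the deletion, and with rapamycin 27.8 and 22.6. WT and rapamycin values overlapped and the deletion lay above both. The rise in the deletion was 0.57 (SE 0.18, limma adjusted p = 0.0315), and it lost its call without WT replicate 1 (0.72, adjusted p = 0.0531), WT replicate 2 (0.41, adjusted p = 0.191) or deletion replicate 1 (0.49, adjusted p = 0.0739). Its adjusted p over the 16 alternatives was 0.00327 to 0.191. MRPL36, which lies 238 bases beyond TFC1 on the same strand, stood at 0.29 and 0.02 (SE 0.13 each) in the deletion and after rapamycin, and neither passed.

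Tfc4 is the subunit that reaches upstream and contacts Brf1 and Bdp1 while TFIIIB assembles, and Tfc8 contacts the TATA-binding protein. TFC4 (YGR047C, chromosome VII at 586392 to 589469, minus strand) had 13.9 and 16.0 scaled CPM in WT, 6.94 and 6.43 in the deletion, and with rapamycin 14.4 and 14.8. It was the one gene of the 10 that fell in the deletion, by 1.05 on the log2 scale (SE 0.16, limma adjusted p = 0.00146), on 25 and 33 reads there, and it kept this call under all 16 alternatives. TAM41, which converges on TFC4 from 339 bases away, also fell in the deletion (-1.25, SE 0.14, adjusted p = 0.000334) but rose after rapamycin (0.45, SE 0.14, adjusted p = 0.0291), where TFC4 stood at -0.03 (95% interval -0.40 to 0.34) and, on the deposited CPM scale, at 0.54 (adjusted p = 0.0363, and 0.0363 to 0.986 over the 16 alternatives).

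TFC8 (YPL007C, chromosome XVI at 542082 to 543848, minus strand) had 13.8 and 16.6 scaled CPM in WT, 16.4 and 14.4 in the deletion, and with rapamycin 17.5 and 16.5. The deletion values lay between those of WT, and the lower rapamycin value did too. Its log2 fold change was 0.02 in the deletion (95% interval -0.36 to 0.40) and 0.16 after rapamycin (-0.22 to 0.53). CHL1, converging from 111 bases away, stood at 0.07 and 0.08 (SE 0.15 each), and neither value passed.

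The make-up of the TFIIIC reads does not depend on the scaling. TFC4 held 12.7% (exact Clopper-Pearson 95% interval 11.3 to 14.1) and 14.4% (12.7 to 16.2) of the reads of the 6 genes in WT, 4.42% (2.88 to 6.45) and 4.73% (3.28 to 6.58) in the deletion, and with rapamycin 10.2% (9.33 to 11) and 11.5% (10.5 to 12.7). TFC7 held 9.81% (8.61 to 11.1) and 10.8% (9.33 to 12.4) in WT, 20.1% (16.9 to 23.7) and 16.5% (13.8 to 19.4) in the deletion, and with rapamycin 9.32% (8.52 to 10.2) and 8.32% (7.38 to 9.33). The TFC3 share was 29.5% (27.6 to 31.4) and 29.8% (27.5 to 32.0) in WT, 24.7% (21.2 to 28.5) and 31.9% (28.5 to 35.6) in the deletion, and with rapamycin 38.9% (37.5 to 40.3) and 39.6% (37.9 to 41.3). The deletion libraries thus stood apart from the other 4 in having less TFC4 and more TFC7, and the rapamycin libraries in having more TFC3. These intervals cover counting error only.

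**Figure D2:**
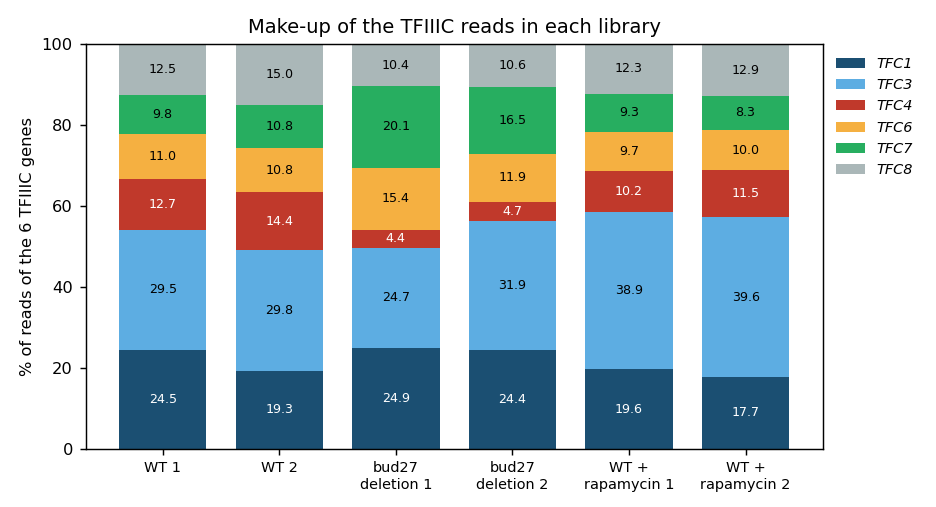
Percent of the reads of the 6 TFIIIC genes held by each gene, 1 bar per library, labelled with its group and replicate number. The TFC4 segment is 4.42% and 4.73% in the deletion against 10.2% to 14.4% elsewhere, and the TFC3 segment is widest after rapamycin (38.9% and 39.6%).

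TFIIIB consists of Brf1, a relative of the RNA polymerase II factor TFIIB, Bdp1, and the TATA-binding protein encoded by SPT15, which serves the other nuclear polymerases too and is not one of the 10 genes. BDP1 (YNL039W, chromosome XIV at 555048 to 556832, plus strand) had 25.3 and 25.5 scaled CPM in WT, 51.0 and 44.2 in the deletion, and with rapamycin 28.0 and 25.4. Both deletion libraries stood well above the other 4. BDP1 rose in the deletion by 0.88 (SE 0.14, limma adjusted p = 0.00194), its mean going from 25.4 ± 0.162 to 47.6 ± 4.83 scaled CPM (SD over 2 libraries), under each of the 16 alternatives, and after rapamycin its change was 0.07 (95% interval -0.26 to 0.39). GPI15, 187 bases beyond BDP1 on the same strand, stood at -0.41 and -0.71 (SE 0.25 each, adjusted p = 0.209 and 0.0501).

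BRF1 (YGR246C, chromosome VII at 982482 to 984272, minus strand) had 18.1 and 17.3 scaled CPM in WT, 34.7 and 25.5 in the deletion, and with rapamycin 26.1 and 23.8. Both other groups lay above WT and overlapped with each other. The rise in the deletion was 0.72 (SE 0.18, limma adjusted p = 0.0118), no longer called without WT replicate 1 (0.75, adjusted p = 0.0636) or replicate 2 (0.69, adjusted p = 0.0801), and the deletion libraries had a ratio of 1.36 (1.06 to 1.75). The rapamycin change of 0.47 (SE 0.18, adjusted p = 0.0587) did not pass, while edgeR on the recovered reads called it (adjusted p = 0.0276), as did 4 of the other alternatives. Adjusted p over the 16 alternatives was 0.00168 to 0.0801 in the deletion and 0.00267 to 0.251 after rapamycin. SDA1, 413 bases beyond BRF1 on the same strand, stood at -0.11 in the deletion (SE 0.16, adjusted p = 0.59) and fell after rapamycin (-1.10, SE 0.16, adjusted p = 0.0011).

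SPT15 (YER148W, chromosome V at 465303 to 466025, plus strand) had 185 and 210.2 scaled CPM in WT, 104 and 117 in the deletion, and with rapamycin 92.4 and 105. It fell by 0.83 in the deletion (SE 0.14, limma adjusted p = 0.00237), where BRF1 and BDP1 rose. After rapamycin, where neither BRF1 nor BDP1 passed, SPT15 fell by 0.99 (SE 0.14, adjusted p = 0.000842). All 16 alternatives kept both calls.

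PZF1 (YPR186C, chromosome XVI at 909733 to 911022, minus strand), the gene of the zinc finger protein TFIIIA, was the least abundant of the 10, with 75 and 53 WT reads, 27 and 22 deletion reads, and 122 and 82 rapamycin reads. This gave 3.64 and 3.63 scaled CPM in WT, 7.49 and 4.28 in the deletion, and with rapamycin 3.55 and 3.28. The deletion libraries lay above WT, but their mutual ratio of 1.75 had an interval from 0.959 to 3.22. Neither the change in the deletion (0.53, SE 0.24, limma adjusted p = 0.106) nor that after rapamycin (-0.07, SE 0.24, adjusted p = 0.839) passed, but the first was called on the deposited CPM scale (0.88, adjusted p = 0.0269) and, with deletion replicate 2 left out, at 0.87 (adjusted p = 0.00558), whereas without deletion replicate 1 it stood at 0.22 (adjusted p = 0.323). Over all 16 alternatives its adjusted p ran from 0.00558 to 0.323. ATG13, which converges on PZF1 from 298 bases away, rose in the deletion (1.15, SE 0.20, adjusted p = 0.00274) and after rapamycin (0.87, SE 0.20, adjusted p = 0.00872).

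MAF1 (YDR005C, chromosome IV at 456836 to 458103, minus strand, with an intron of 80 bases) had 11.8 and 14.8 scaled CPM in WT, 19.1 and 23.0 in the deletion, and with rapamycin 20.1 and 20.2. Both other groups lay above WT, and the rapamycin values fell between those of the deletion. MAF1 rose by 0.63 in the deletion (SE 0.17, limma adjusted p = 0.0182) and by 0.57 after rapamycin (SE 0.17, adjusted p = 0.0265), in comparisons that share their WT samples. No other gene of the 10 was called higher in both by this fit, but BRF1 was with edgeR (adjusted p = 0.00758 and 0.0276) and with only the 2 groups fitted (0.0176 and 0.0106), and on the deposited CPM scale TFC1, TFC3, TFC6, BRF1 and BDP1 were. Without WT replicate 1 neither call held (adjusted p = 0.12 and 0.161), and the rapamycin call was also lost without rapamycin replicate 1 (0.118) or replicate 2 (0.116). Over the 16 alternatives adjusted p was 0.00204 to 0.12 in the deletion and 0.000931 to 0.161 after rapamycin. Leaving out a deletion library also added to the genes higher in both. Without deletion replicate 1, TFC3 stood at 0.44 in the deletion and 0.70 after rapamycin, and BRF1 at 0.54 and 0.49. With deletion replicate 2 left out, BRF1 stood at 0.93 and 0.47. RAD57, which converges on MAF1 from 252 bases away, had 0.48 (SE 0.22, adjusted p = 0.102) and -0.13 (SE 0.22, adjusted p = 0.655).

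**Figure D3:**
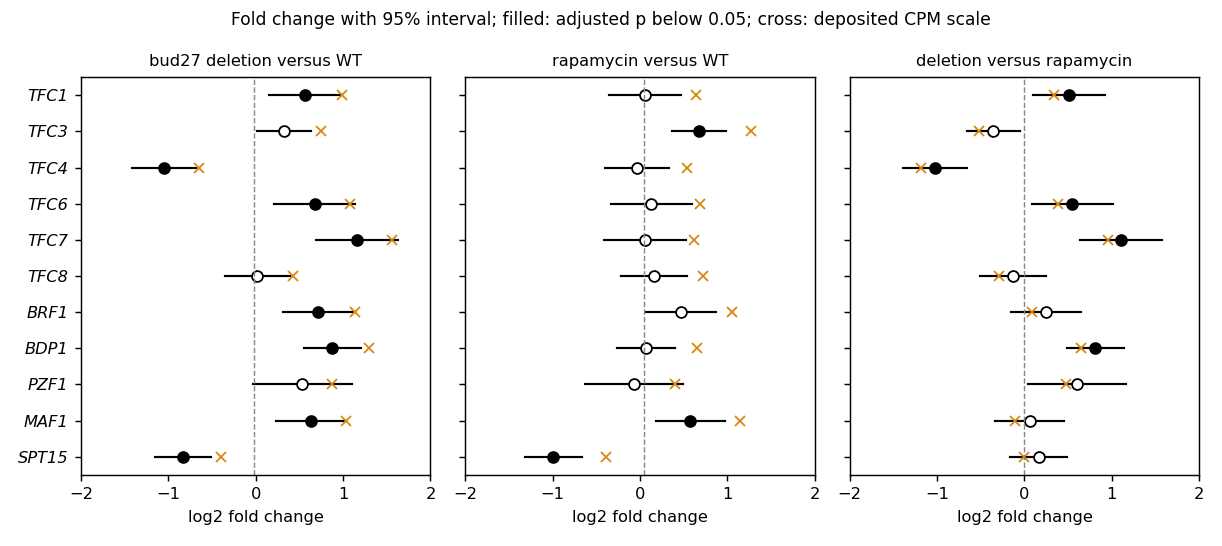
Log2 fold change of the 10 genes and SPT15 in the 3 comparisons, with 95% intervals from limma as lines, filled points for adjusted p below 0.05, dashed lines for the median of all rows and crosses for the change on the deposited CPM scale. TFC4 is left of the others in both panels that hold the deletion, MAF1 is right of the dashed line against WT in both groups, and the crosses lie to the right of the points after rapamycin.

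Set directly against each other, the deletion and rapamycin libraries differed in 5 of the 10 genes, where 55.1% of all rows passed (25.6% higher and 29.4% lower in the deletion). TFC7 (1.10, SE 0.20, limma adjusted p = 0.00246), BDP1 (0.81, SE 0.14, adjusted p = 0.00195), TFC6 (0.54, SE 0.20, adjusted p = 0.0484) and TFC1 (0.51, SE 0.18, adjusted p = 0.0416) were higher in the deletion, and TFC4 was lower (-1.02, SE 0.16, adjusted p = 0.00109). The calls of TFC7, BDP1 and TFC4 held under all 16 alternatives, those of TFC1 and TFC6 under 9 and 8. TFC3 was lower in the deletion by a difference of -0.35 that did not pass (SE 0.13, adjusted p = 0.0523). For MAF1 the difference was 0.06, with a 95% interval of -0.34 to 0.45, and for BRF1 0.25 (-0.16 to 0.65). These intervals reach differences of 0.45 and 0.65, so equal levels in both groups were not shown. On the deposited CPM scale 52.4% of all rows passed (17.8% higher, 34.6% lower), and of the 10 genes TFC7 and BDP1 were higher and TFC3 and TFC4 lower.

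**Figure D4:**
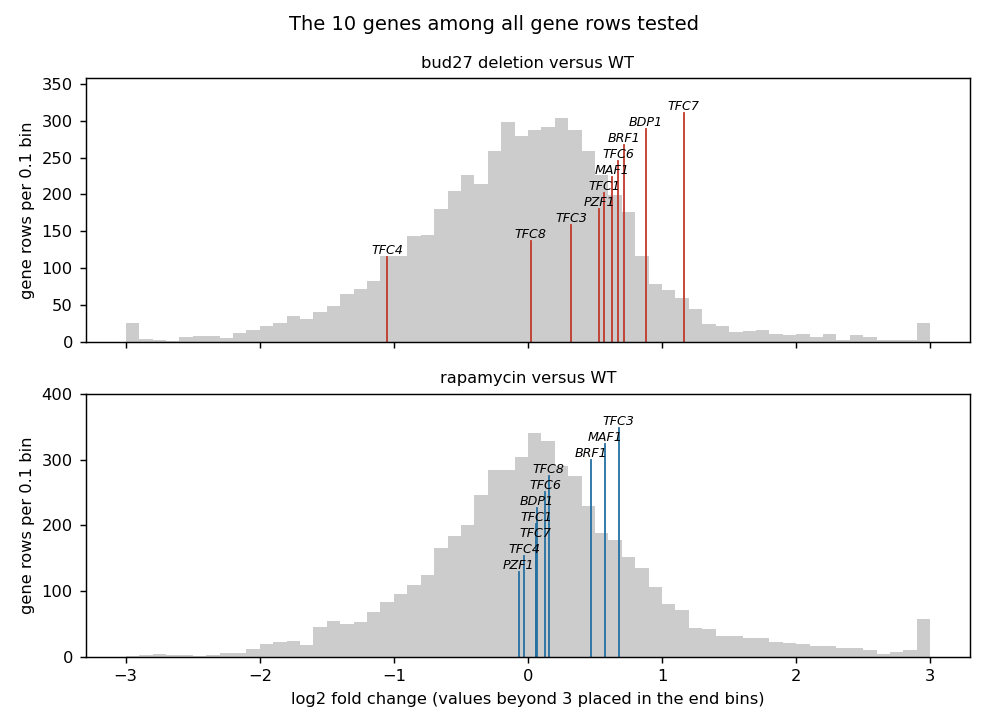
Histogram of the log2 fold change of the 5279 gene rows against WT, in bins of 0.1, with a line for each of the 10 genes. In the deletion the lines lie mostly right of the centre, from 0.32 to 1.16, with TFC8 at 0.02 and TFC4 at -1.05, while after rapamycin 7 of them lie between -0.07 and 0.16.

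By Euclidean distance between centred log2(scaled CPM + 1) values over the 6 libraries, among 4764 rows with a mean of at least 5 CPM, the rows most like MAF1 were VBA2, a vacuolar amino acid transporter (distance 0.11, Pearson's r 0.99), the mitochondrial ribosomal protein gene MRPS16 (0.20, r 0.98) and the spindle checkpoint gene MAD3 (0.22, r 0.97). Those most like TFC1 were the secretion gene SEC1 (0.17, r 0.97), HRD3 of endoplasmic reticulum protein degradation (0.18, r 0.98) and the cullin gene CUL3 (0.20, r 0.98). Among the 10 genes, the nearest to MAF1 was TFC3 (distance 0.49) and the nearest to TFC1 was TFC6 (0.36), while TFC4 was farthest from its nearest fellow, TFC8 (1.15). These values describe 6 libraries in 3 groups and share the same scaling.

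The other genes of the pathway gave the counts here and in the paragraphs below, which stand beside the shares of all rows. Of all rows, 21.7% were higher and 25.5% lower in the deletion, and 24.4% and 21.5% after rapamycin. On the deposited CPM scale these shares were 42.5% and 13.3%, and 54.7% and 8.18%. Of the 9 tested among the 10 subunits that belong to RNA polymerase III alone, 3 fell and none rose in the deletion (median -0.23), and 8 fell and none rose after rapamycin (median -1.14). RPO31, the largest subunit, changed by -1.93 (SE 0.28) and -1.31 (SE 0.28), and RPC31 by -1.03 (SE 0.20) and -1.42 (SE 0.20). RPC37 had too few reads to be tested. Of the 7 subunits shared with other polymerases 3 fell in the deletion, led by RPC10 (-1.09, SE 0.16) and RPO26 (-0.92, SE 0.15), and all 7 fell after rapamycin, led by RPB8 (-1.25, SE 0.12) and RPC40 (-1.21, SE 0.20). On the deposited CPM scale 4 of the 9 and 2 of the 7 fell after rapamycin and none rose, while in the deletion 3 of the 9 rose and 2 fell, and 2 of the 7 rose and 2 fell. The 10 genes, with 2 higher (TFC3 and the repressor gene MAF1) and none lower after rapamycin, are given beside these lists. SPT15, the TFIIIB subunit gene outside the 10, fell after rapamycin (-0.99, SE 0.14). The difference between the lists was not tested.

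Of 10 kinase genes acting on Maf1 or the polymerase, 2 rose and 3 fell in the deletion, where CKA1, a catalytic subunit of casein kinase 2, stood at 1.04 (SE 0.22) and its regulatory subunit CKB2 at -0.89 (SE 0.13). After rapamycin 3 rose and 2 fell, among them the kinase gene KNS1 at 1.58 (SE 0.23) in a row that it shares with COX19 and YLL020C. Of 8 genes for phosphatases of Maf1 and its exporter, 2 rose and 1 fell in the deletion and 2 fell after rapamycin. The exporter MSN5 stood at 0.73 (SE 0.14) and the phosphatase 2A subunit CDC55 at -1.31 (SE 0.25) in the deletion, and the subunit genes TPD3 and PPH21 at -0.94 (SE 0.14) and -0.47 (SE 0.15) after rapamycin. Of 4 cofactor genes 3 fell in the deletion, among them SUB1 at -0.89 (SE 0.15) and NHP6A at -3.0 (SE 0.32) in a row shared with YPR053C. After rapamycin 1 fell, LHP1, the La protein gene that protects new RNA polymerase III transcripts, at -1.36 (SE 0.13). The deposited CPM scale gave in the deletion 4 higher and 1 lower kinase genes, 2 and 1 for phosphatases and export, and 1 and 2 for cofactors. After rapamycin it gave 5 and 0, 1 and 0, and 2 and 1.

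Of the 15 tested among 17 tRNA processing genes, 2 rose and 3 fell in the deletion, among them the splicing phosphotransferase gene TPT1 at -1.22 (SE 0.18), and 1 rose and 5 fell after rapamycin, among them the tRNA exporter LOS1 at -1.24 (SE 0.15). RPR2, an RNase P subunit gene whose row it shares with YIR016W and YIR017W-A, stood at -1.14 (SE 0.15) in the deletion and 1.10 (SE 0.15) after rapamycin. Of 8 genes for polymerase assembly and import, BUD27 fell and IWR1 rose in the deletion (0.62, SE 0.18), and BUD27 (-0.60, SE 0.18) and NPA3 (-0.48, SE 0.14) fell after rapamycin. Neither fall was called on the deposited CPM scale, where 3 of the 8 rose and none fell after rapamycin, 3 rose and 1 fell in the deletion, and BUD27 stood at -0.041 after rapamycin. On that scale 8 tRNA processing genes rose and 2 fell in the deletion, and 5 rose and 1 fell after rapamycin. Of all rows, 42.5% were higher there in the deletion and 54.7% after rapamycin.

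Initiation factors of the other polymerases were counted for comparison, beside 47.2% of all rows that passed in the deletion and 45.9% after rapamycin. Of 8 RNA polymerase I factors 1 rose and 1 fell in the deletion, UAF30 at 0.51 (SE 0.15) and RRN10 at -1.03 (SE 0.19), and 2 fell after rapamycin, RRN7 at -0.78 (SE 0.18) and RRN11 at -0.75 (SE 0.17). Of 18 general factors of RNA polymerase II 5 rose and 4 fell in the deletion, where TFA2 of TFIIE stood at -2.14 (SE 0.28) and the TFIIH helicase gene SSL2 at -2.12 (SE 0.19), and 1 rose (TFB5 of TFIIH, 0.65, SE 0.14) and 2 fell after rapamycin, led by SSL2 at -1.34 (SE 0.19). On the deposited CPM scale the RNA polymerase I factors gave 3 higher and 1 lower in the deletion and 2 higher and 0 lower after rapamycin, and the RNA polymerase II factors gave 11 and 2, and 8 and 1. On that scale 42.5% of all rows were higher in the deletion and 54.7% after rapamycin.

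**Figure D5:**
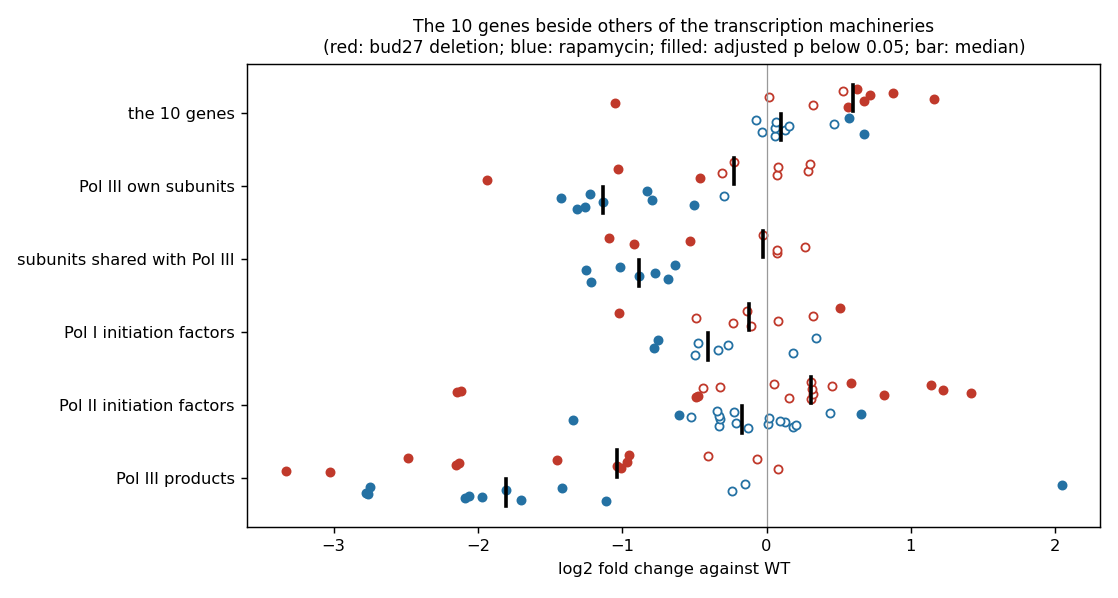
Log2 fold change against WT of the 10 genes and of other lists, 1 point per gene (red for the deletion, blue for rapamycin, filled for adjusted p below 0.05) with a bar at each median. The blue points of the subunits of RNA polymerase III lie at or below -0.29, while those of the 10 genes lie between -0.07 and 0.68, and most points of the RNA polymerase III products lie below 0.

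Rows for 15 transcripts that RNA polymerase III makes were also in the table and 13 were tested. These RNAs lack the long poly(A) tail on which such libraries are primed, so their reads need not follow their amount, and the list was chosen after the rows of the table had been seen. In the deletion 10 fell and none rose, with a median of -1.03, and after rapamycin 10 fell and 1 rose, with a median of -1.80. Of all rows, 25.5% were lower in the deletion and 21.5% after rapamycin. Several that fell in the deletion had few reads there: tK(UUU)O 3 and 6, tE(UUC)K 3 and 12, tK(CUU)K 3 and 11, and tE(UUC)G1 10 and 6. Reads there were also few for snR52 (16 and 13), SCR1 (11 and 23) and RPR1 (19 and 31). The deposited CPM scale left 7 lower and 0 higher in the deletion, and 9 lower and 1 higher after rapamycin. SCR1, the RNA of the signal recognition particle, had 38.9 and 55.2 scaled CPM in WT, 3.05 and 4.48 in the deletion, and with rapamycin 13.4 and 13.8. It changed by -3.33 in the deletion (SE 0.22, limma adjusted p = 3.22e-05) and by -1.70 after rapamycin (SE 0.22, adjusted p = 0.000576). RPR1, the RNA of RNase P, had 40.6 and 69.3 scaled CPM in WT, 5.27 and 6.04 in the deletion, and with rapamycin 24.7 and 23.4. The U6 RNA snR6 had 29.2 and 13.7 in WT, 26.6 and 16.9 in the deletion, and with rapamycin 3.61 and 4.32, so that the deletion overlapped with WT and rapamycin lay below both. The row that rose after rapamycin joins the tRNA gene tT(UGU)G2 with YGR256W.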

How the data were processed

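The authors deposited 1 table of CPM values for 6 libraries, with 7247 rows, of which 1772 are CUT or SUT rows not used here. Per the labels' protocols the libraries were made with a QuantSeq 3′ kit and sequenced on an Illumina instrument. Build R64 and the tools HISAT2, FastQC, DESeq and DESeq2 are named, with no versions, per the submitters' processing notes. No source used here gives the counting tool, its annotation or its strand setting. In each column 100% of the deposited CPM values were whole multiples of 1 read within 0.01 reads, so reads were recovered, and libraries rested on 3212848 to 28774941 reads.

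CPM were divided by TMM factors of 0.767 and 0.805 (WT), 1.12 and 1.01 (deletion) and 1.19 and 1.20 (rapamycin), computed with edgeR 4.0.16. To log2(scaled CPM + 1), limma 3.58.1 (R 4.3.3) fitted the 3 groups in 1 model with a mean-variance trend and 3 residual degrees of freedom, on 5279 gene rows that passed edgeR's filter by group (minimum count 10), 281 of which join several features. p-values were adjusted by Benjamini and Hochberg over all of them. edgeR's quasi-likelihood test and DESeq2 1.42.0 on the recovered reads were alternatives. The fits were run on simulated data in which a small part of the rows changed, in the deletion group only. Far more rows passed in the real data, so the simulation cannot judge the choice of scaling. Binomial intervals are exact at 95%. All 10 genes, BUD27, SPT15, up to 2 called leaders of each list with a mean of at least 5 CPM, the neighbours at the 3′ side, and the 3 rows most like MAF1 and TFC1 were named. The genes, lists and tests were chosen with earlier results of these data known. The B box search and the list of RNA polymerase III products were added after the table had been seen. Of 5780 feature names 5537 matched the R64 reference, and sequences are from RefSeq. A leader of 1 list is not reported here.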

Additional observations from a re-analysis of the deposited data

How the results depend on the processing

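Depth limits PZF1 and TFC4 most, with 22 to 33 reads per deletion library, and with 2 libraries a group several calls are lost when 1 library is left out, also where the fold hardly moves (TFC6 and BRF1 without a WT library). The number of the 10 genes called in the deletion was 7, and 3 to 8 when 1 library was left out. After rapamycin it was 2, 1 to 3 with 1 library left out and 8 on the deposited CPM scale. Between the deletion and rapamycin it was 5, 3 to 8 with 1 library left out and 3 when only those 2 groups were fitted. Over all rows the counts of 2492, 2421 and 2908 became 1434 to 3031, 1588 to 3058 and 2044 to 3261 when 1 library was left out, and stayed within 1.5 times under the alternatives that keep all 6 libraries. A replicate block on the replicate numbers left the genes called at 7, 2 and 5 and called 2377, 2320 and 2808 rows. Deviations of libraries with the same number correlated at -0.05 (WT and deletion), -0.10 (WT and rapamycin) and 0.04 (deletion and rapamycin), so the numbers were not taken to pair samples. Signs turned only for values near 0. On the deposited CPM scale the rapamycin change of TFC4 became 0.54 and that of PZF1 0.40, and the difference between deletion and rapamycin became -0.10 for MAF1 and -0.0041 for SPT15. With 1 library left out, the change of TFC8 in the deletion ranged from -0.11 to 0.15. After rapamycin TFC1 then ranged from -0.10 to 0.23, TFC4 from -0.12 to 0.064 and TFC7 from -0.066 to 0.22, and the difference of MAF1 between deletion and rapamycin from -0.071 to 0.20. The cause was not tested.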
